A study of Mus musculus with 10 samples.

Results

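The hemidesmosome and the laminin-332 it binds were followed through 8 genes in 10 libraries of sorted mouse prostate cells. Lama3 and Lamb3 encode chains of laminin-332, the extracellular ligand. Itgb4 and Itga3 encode integrin subunits that bind it, and Cd151 encodes a tetraspanin that associates with those integrins. Col17a1 encodes the transmembrane collagen XVII, and Dst and Plec encode the plakins that link the plaque to keratin filaments. The 8 genes were listed by name. Each row of the deposited tables was assigned to a gene by its position on the mouse genome (build mm10), and FPKM, a fragment count scaled by transcript length and by the fragments mapped in the library, was summed per gene. These 8 are among 24587 genes with a value. All 8 were also among the 12493 genes that reached 1 FPKM in at least 2 libraries and entered the tests.

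Hemidesmosomes fasten the basal surface of stratified and pseudostratified epithelia to the basement membrane. Outside the cell laminin-332 binds the integrin that joins the alpha 6 and the beta 4 subunit, while collagen XVII spans the membrane beside it. Inside the cell plectin and the epithelial form of dystonin tie that integrin and collagen XVII to keratin filaments. The prostate epithelium has a layer of basal cells resting on this membrane and a layer of luminal secretory cells above it.

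Total RNA was sequenced from prostate cells of C57BL/6 mice aged 8 to 12 weeks, sorted by surface antigens after cells with lineage markers (Lin) had been gated out. Basal cells (low for CD24, high for CD49f) gave 2 libraries. Luminal cells (high for CD24, low for CD49f) were split by the antigen Sca-1 into 3 Sca-1- and 3 Sca-1+ libraries, and stromal cells (without CD24 and CD49f) gave 2 libraries. No group carries an engineered allele or a drug treatment in its labels. The labels do not say whether the libraries of a group came from different animals or pools, so p-values measure only the spread between these libraries. A culture protocol accompanies every library, and the labels leave unstated whether the sorted cells had been cultured. CD49f is integrin alpha 6, the product of Itga6 and the partner of the Itgb4 product, so the gates themselves select on one subunit of the hemidesmosome integrin.

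The libraries held 20.35 to 27.15 M mapped fragments, read from the steps of the low FPKM values. Marker genes were summed as FPKM to check the gates. The 5 basal markers summed to 7242 and 8525 in basal, 39.6 to 261 in Sca-1- luminal, 700 to 3265 in Sca-1+ luminal and 28.4 to 119 in stromal libraries. The 8 luminal markers summed to 32105 to 53291 in Sca-1- luminal libraries, but to 4760 to 9571 in Sca-1+ luminal libraries against 3017 and 4620 in basal ones. The 7 fibroblast markers reached 5167 and 6944 in stromal libraries, and none was at 0 in any library. Sca-1+ luminal replicate 3 stands apart from the other Sca-1+ libraries: its fibroblast sum was 339 against 4881 and 2408, and its sum of basal markers was 3265 against 700 and 1392, of which Krt15 made up 3225. The sums over smooth muscle markers were 24.7 to 380, and those over urothelial markers 12.2 to 316. Sums over leukocyte, endothelial, glia and skeletal muscle markers stayed between 0.583 and 24.7 in every library, with Cd3e and Myh4 at or near 0. In bulk RNA of this kind, fewer cells of a type and less RNA per cell cannot be told apart.

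Most of these genes were highest in the basal gate. Against Sca-1- luminal libraries, 6 of the 8 were higher in basal libraries, none was lower, and Plec and Cd151 did not pass the test. Of all genes tested, 20.2% were called higher in the same comparison. The median log2 change of the 8 was 4.19, against -0.05 for all genes. Against Sca-1+ luminal libraries 6 of the 8 were again higher, where 4.36% of all genes were, with a median log2 change of 2.58 against -0.29 for all genes. The sixth gene was then Cd151 in place of Dst. Both comparisons use the same 2 basal libraries. Without Sca-1+ luminal replicate 3 the counts were 6 and 7, and with replicate 3 alone in its group they were 6 and 4. A group of 1 library, here and below, has no spread of its own and is taken to vary as the other groups do. All changes are differences of log2(FPKM + 1), which understate the change of genes with low values, and calls rest on limma with a threshold of 0.05 on p adjusted by Benjamini-Hochberg over all genes tested. As a ratio of group means, the basal level was 64.8 times the Sca-1- luminal one for Col17a1, 58.4 times for Lamb3, 38.5 for Lama3, 21.6 for Itga3, 19.7 for Itgb4 and 5.20 for Dst.

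**Figure D1:**
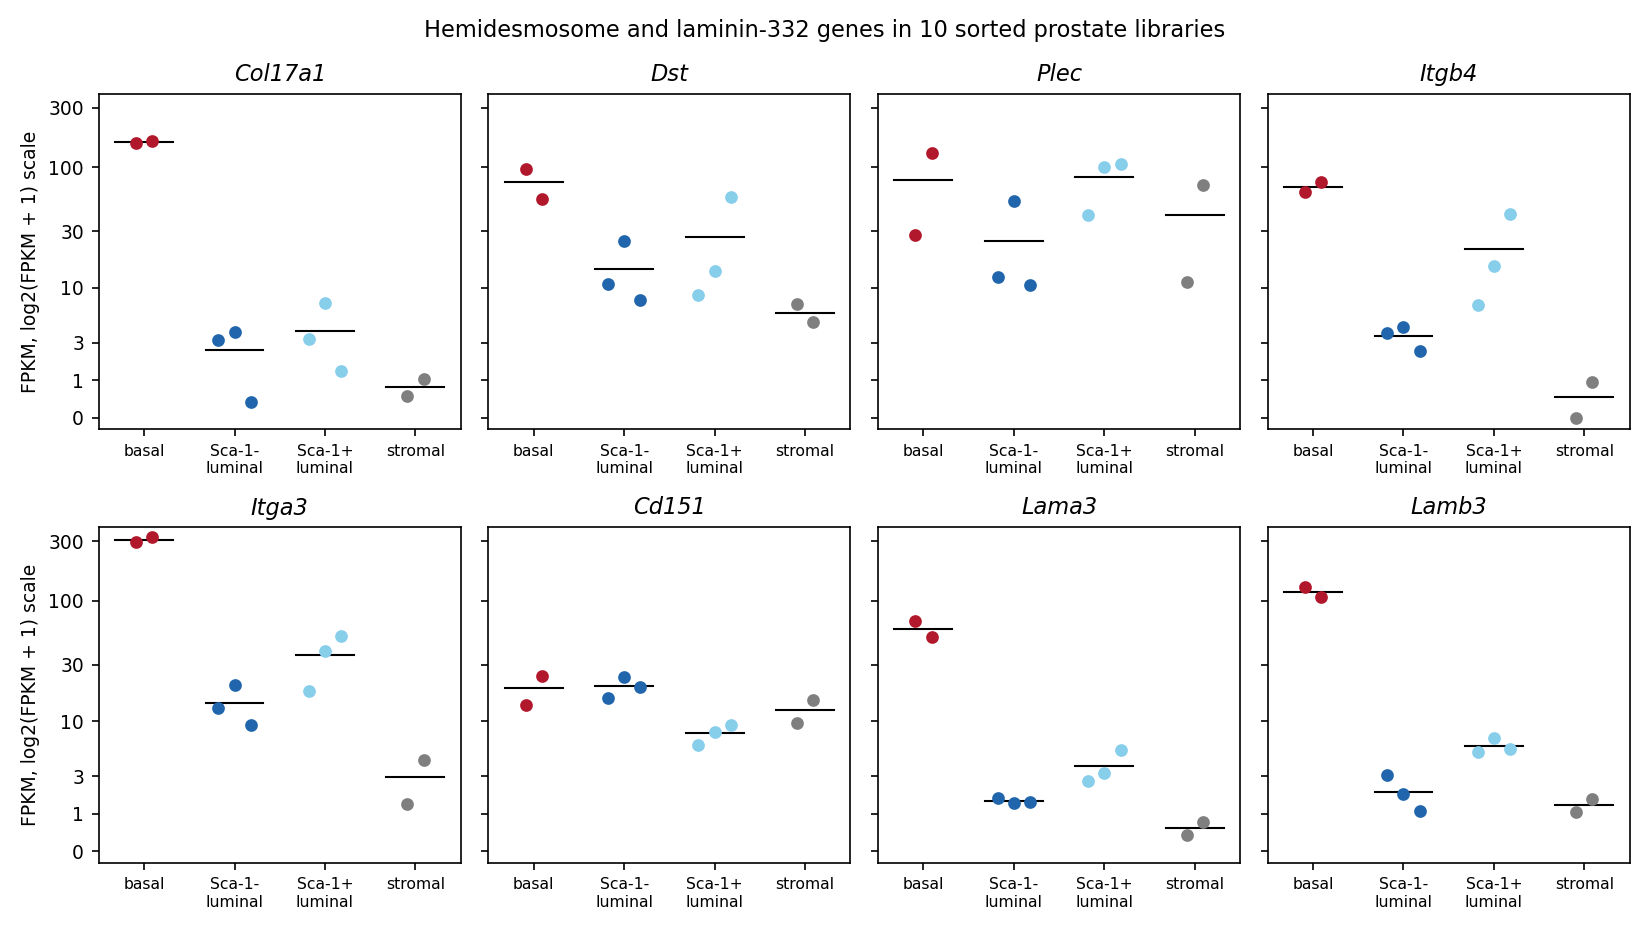
Level of each gene in every library. Points are libraries, placed by FPKM on a log2(FPKM + 1) scale, and black bars are group means of FPKM (n = 2 basal, 3 Sca-1- luminal, 3 Sca-1+ luminal, 2 stromal). Col17a1, Itga3, Lama3, Lamb3 and Itgb4 separate the basal libraries from all others, whereas Cd151 and Plec do not.

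The ligand genes had the smallest SE of the 8 on the log2(FPKM + 1) scale, which narrows the spread of low values. Cd151 came next, with an SE of 0.31 for basal against either luminal group. Lama3 (chromosome 18, 12333417 to 12583013, plus strand) encodes the alpha 3 chain. It stood at 68.2 and 50.3 FPKM in basal, 1.69, 1.45 and 1.48 in Sca-1- luminal, 2.64, 3.25 and 5.47 in Sca-1+ luminal, and 0.364 and 0.724 in stromal libraries. The 4 groups did not overlap, in the order basal, Sca-1+ luminal, Sca-1- luminal, stromal. Its basal level exceeded the Sca-1- luminal level by 4.55 on the log2 scale (SE 0.29; limma, adjusted p = 1.14e-05) and the Sca-1+ luminal level by 3.68 (SE 0.29; limma, adjusted p = 0.000176). Lamb3 (chromosome 1, 193294353 to 193343878, plus strand) encodes the beta 3 chain. Its values were 128 and 106 FPKM in basal, 3.05, 1.89 and 1.09 in Sca-1- luminal, 5.19, 7.06 and 5.56 in Sca-1+ luminal, and 1.06 and 1.64 in stromal libraries. Basal libraries were the highest and Sca-1+ luminal libraries came next, while the Sca-1- luminal and stromal values overlapped. The basal excess was 5.34 (SE 0.30; limma, adjusted p = 7.79e-06) over Sca-1- luminal and 4.10 (SE 0.30; limma, adjusted p = 0.000146) over Sca-1+ luminal libraries.

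Lama3 can be transcribed from an upstream start, which gives a long chain, or from an internal start, which gives the short chain found in epithelial laminin-332. The internal start, at position 12504199, took all of the estimated Lama3 FPKM in the 2 basal and 3 Sca-1- luminal libraries. The long transcript had a value only in Sca-1+ luminal replicate 1 (0.225 FPKM) and in stromal libraries (0.068 and 0.0821 FPKM). Lamb3 came from the transcript that starts at 193301994 in the 2 basal and 3 Sca-1+ luminal libraries. In Sca-1- luminal replicate 3 that transcript was listed at 0, and the value was split over the other 2 transcripts.

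The ratio of Lamb3 to Lama3 in FPKM ran from 0.735 to 2.90 over the 10 libraries. It was 1.88 and 2.12 in basal, 0.735 to 1.81 in Sca-1- luminal, 1.02 to 2.17 in Sca-1+ luminal, and 2.90 and 2.26 in stromal libraries. The difference of this ratio between groups was not tested.

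**Figure D2:**
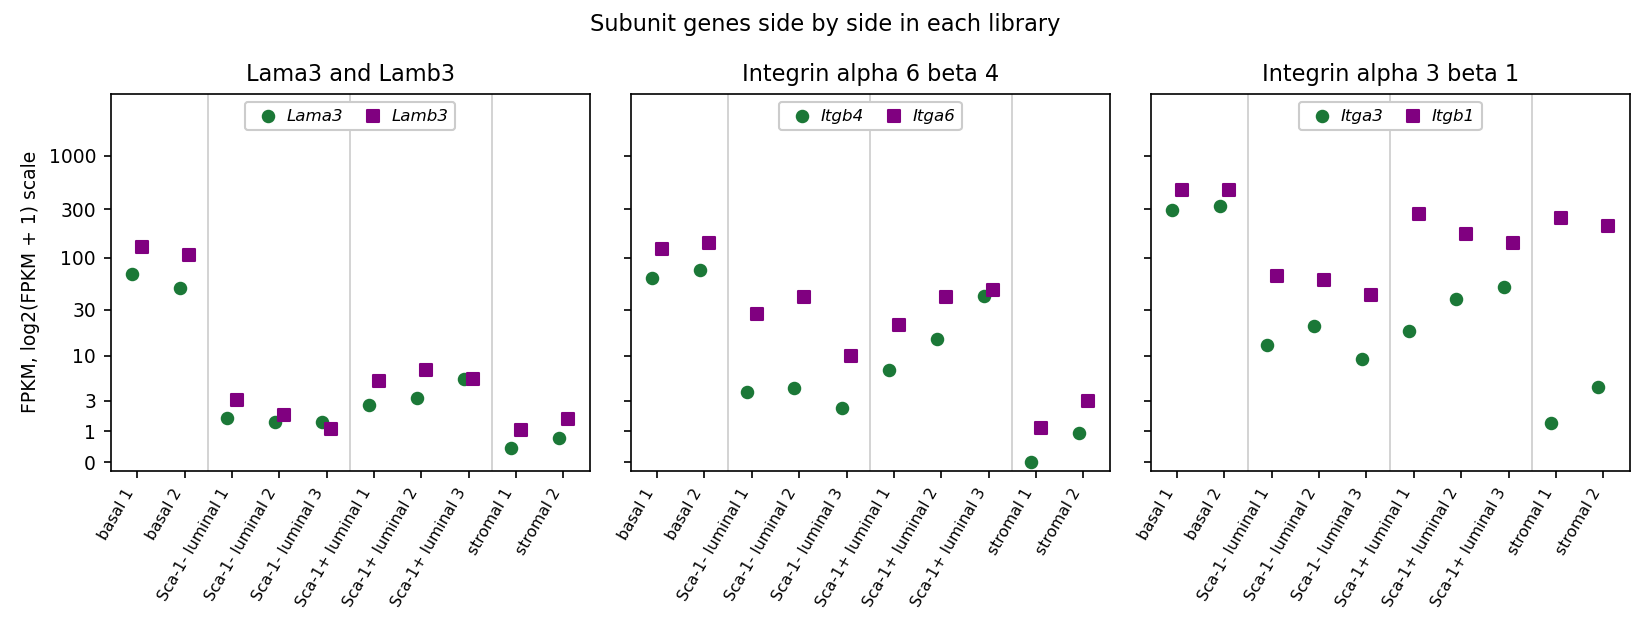
Subunit genes by library, as FPKM on a log2(FPKM + 1) scale, for Lama3 and Lamb3 (left), the integrin that joins alpha 6 and beta 4 (middle) and the integrin that joins alpha 3 and beta 1 (right). Itgb1 is at 139 FPKM or more in Sca-1+ luminal and stromal libraries, where Itga3 is between 1.39 and 51.4.

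Itgb4 (chromosome 11, 115974725 to 116008412, plus strand), whose product pairs with integrin alpha 6 and anchors plectin, was graded over the gates. It measured 62.6 and 75.6 FPKM in basal, 3.81, 4.32 and 2.41 in Sca-1- luminal, and 7.0, 15.2 and 41.3 in Sca-1+ luminal libraries. In stromal libraries it was listed at 0 in replicate 1 and stood at 0.929 in replicate 2. The 4 groups did not overlap, and Sca-1+ luminal replicate 3 came closest to the basal level, at 59.8% of the basal mean. Basal libraries exceeded Sca-1- luminal ones by 3.98 (SE 0.59; limma, adjusted p = 0.00061). The excess over Sca-1+ luminal libraries was 1.98 (SE 0.59; limma, adjusted p = 0.0425). Set against replicate 3 alone, that excess was 0.72 (limma, adjusted p = 0.328), and without it 2.62 (limma, adjusted p = 0.00165). The call was lost in 14 of the 20 alternatives run. Itga6 reads the same antigen that set the gates, and its ratio to Itgb4 was 1.95 and 1.85 in basal, 4.10 to 9.30 in Sca-1- luminal, and 3.01, 2.64 and 1.15 in Sca-1+ luminal libraries.

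Itga3 (chromosome 11, 95044475 to 95076844, minus strand) encodes the alpha 3 subunit, which pairs with beta 1 and also binds laminin-332. It had the highest basal level of the 8 genes, 295 and 323 FPKM. Its other values were 13.1, 20.6 and 9.27 in Sca-1- luminal, 18.3, 38.6 and 51.4 in Sca-1+ luminal, and 1.39 and 4.42 in stromal libraries. Basal libraries were the highest and stromal ones the lowest, while the luminal groups overlapped, since Sca-1+ luminal replicate 1 lay below Sca-1- luminal replicate 2. The basal excess was 4.41 (SE 0.49; limma, adjusted p = 0.000124) over Sca-1- luminal and 3.18 (SE 0.49; limma, adjusted p = 0.00278) over Sca-1+ luminal libraries. Its partner Itgb1 was less uneven over the gates, with 459 and 458 FPKM in basal, 41.9 to 64.9 in Sca-1- luminal, 139 to 266 in Sca-1+ luminal, and 247 and 203 in stromal libraries. Thus Itgb1 exceeded Itga3 by 1.56 and 1.42 times in basal libraries and by 178 and 45.9 times in stromal ones. The ratio of Itga3 to Itga6 was 2.41 and 2.31 in basal libraries, 0.479 to 1.08 in the 6 luminal libraries, and 1.21 and 1.48 in stromal ones.

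Cd151 (chromosome 7, 141467362 to 141471481, plus strand) encodes the tetraspanin that associates with laminin-binding integrins, and it did not follow them. Its values were 13.9 and 24.3 FPKM in basal, 15.9, 23.9 and 19.7 in Sca-1- luminal, 6.15, 8.01 and 9.22 in Sca-1+ luminal, and 9.65 and 15.3 in stromal libraries. The basal and Sca-1- luminal values overlapped, with a log2 difference of -0.08 (SE 0.31; limma, adjusted p = 0.862). The 3 Sca-1+ luminal libraries were the lowest of the 10. Basal libraries exceeded them by 1.16 (SE 0.31; limma, adjusted p = 0.0304), but without basal replicate 2 the excess was 0.77 (limma, adjusted p = 0.26). Set against Sca-1+ luminal replicate 3 alone, the excess was 0.92. The call was lost in 6 of the 20 alternatives run.

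Col17a1 (chromosome 19, 47646341 to 47692042, minus strand), the collagen XVII gene, showed the largest change of the 8 in both comparisons. It stood at 157 and 161 FPKM in basal, 3.20, 3.85 and 0.331 in Sca-1- luminal, 3.27, 7.33 and 1.36 in Sca-1+ luminal, and 0.484 and 1.05 in stromal libraries. The 2 basal libraries were far above the other 8, whose groups overlapped except for the Sca-1+ luminal and stromal ones. The basal excess was 5.74 (SE 0.61; limma, adjusted p = 0.000101) over Sca-1- luminal and 5.20 (SE 0.61; limma, adjusted p = 0.000898) over Sca-1+ luminal libraries. Within each group outside the basal gate, Col17a1 ranked the libraries in the same order as Krt14. As a percentage of the basal mean it was 2.01, 2.41 and 0.208 in Sca-1- luminal libraries, where Krt14 was 2.48, 2.90 and 0.385 and Krt5 was 1.97, 3.15 and 0.498. Krt17, at 1.66, 3.60 and 0.231, also ranked the Sca-1- luminal libraries as Col17a1 did. Krt15, at 3.92, 3.33 and 0.962, and Trp63, at 0.616, 0.0282 and 0.114 FPKM, ranked them differently. In Sca-1+ luminal libraries Col17a1 was 2.05, 4.60 and 0.85, beside 3.0, 7.27 and 0.492 for Krt14. Krt17 ranked those libraries as Col17a1 did, at 2.04, 9.45 and 0.725, and so did Trp63, at 1.04, 1.14 and 0.509 FPKM. Krt5, at 1.29, 4.35 and 1.63, and Krt15, at 24.4, 39.9 and 138, ranked them differently. In stromal libraries Col17a1 was 0.304 and 0.659, beside 0.361 and 1.27 for Krt14 and 0.286 and 1.44 for Krt5. The part of basal cells in these low values was not tested.

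**Figure D3:**
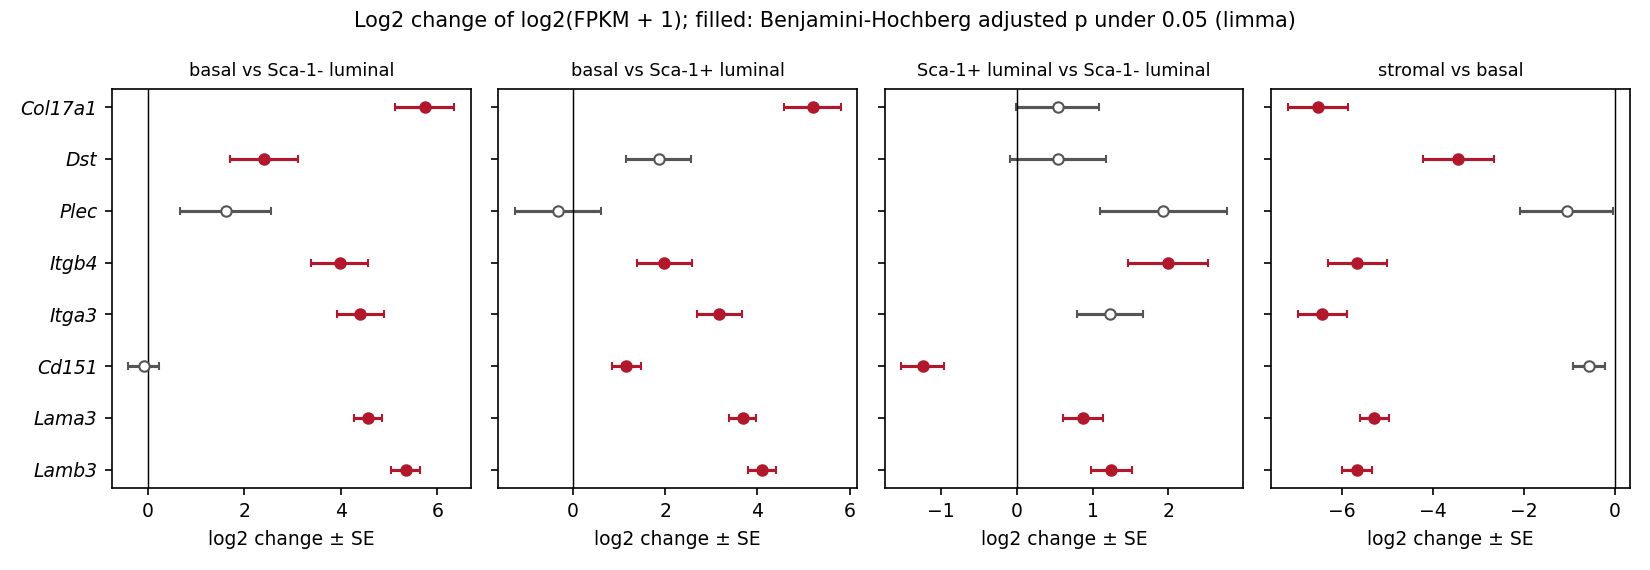
Log2 change of each gene in 4 of the comparisons, with its SE as bars. Filled points passed an adjusted p of 0.05 over all genes tested (limma). The laminin and Col17a1 points lie far from 0 in the basal and stromal panels, and Cd151 is the only filled point below 0 between the luminal groups.

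The start regions of Itga3, the gene with the highest basal level, and of Col17a1, the gene with the largest change, are given here from RefSeq (GRCm38.p6, the assembly of mm10), as 300 bases from 250 before to 50 after the annotated start. Capitals mark matches on either strand, none of which overlap. The GC box was searched as GGGCGG. The TATA box was searched as TATAAA. The AP-1 motif was searched as TGANTCA, and the p53 family response element as its decamer. A match is a description of the letters, and a motif not found says only that its letters are not in this window. The Itga3 window (chr11:95076665-95076964, minus strand) is 66.7% G and C with 24 CpG and holds 3 GC boxes. The Col17a1 window (chr19:47691993-47692292, minus strand) is 46.3% G and C with 5 CpG. It holds 2 TATAAA, at -140 to -135 and -91 to -86 from the start, and 1 p53 family decamer at 15 to 24. Over all 32851 windows of this length, GC boxes were in 35.7%, TATAAA in 13.6%, the p53 family decamer in 8.36% and the AP-1 letters in 7.81%.
Itga3 start: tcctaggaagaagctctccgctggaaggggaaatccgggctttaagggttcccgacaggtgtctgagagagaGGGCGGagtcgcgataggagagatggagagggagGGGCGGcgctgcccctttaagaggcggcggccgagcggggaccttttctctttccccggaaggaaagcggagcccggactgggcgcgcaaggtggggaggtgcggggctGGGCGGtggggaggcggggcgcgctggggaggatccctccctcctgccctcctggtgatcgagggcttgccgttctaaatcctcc
Col17a1 start: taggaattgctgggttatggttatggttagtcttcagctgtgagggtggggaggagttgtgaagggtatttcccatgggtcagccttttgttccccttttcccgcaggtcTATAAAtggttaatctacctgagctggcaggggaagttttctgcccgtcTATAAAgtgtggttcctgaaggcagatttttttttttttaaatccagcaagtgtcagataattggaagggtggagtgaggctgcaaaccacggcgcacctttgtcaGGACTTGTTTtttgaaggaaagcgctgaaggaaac

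Dst (chromosome 1, 33907888 to 34308662, plus strand) encodes dystonin, whose long isoforms belong to nerve and muscle and whose epithelial isoform is the hemidesmosome plakin. The summed FPKM was 95.7 and 55.6 in basal, 10.8, 25.1 and 7.81 in Sca-1- luminal, 8.57, 14.1 and 57.7 in Sca-1+ luminal, and 7.08 and 4.79 in stromal libraries. Sca-1+ luminal replicate 3 overlapped the basal range. Basal libraries exceeded Sca-1- luminal ones by 2.41 (SE 0.71; limma, adjusted p = 0.0195), a call lost without either basal library (adjusted p = 0.136 and 0.052 in limma) or without Sca-1- luminal replicate 1 or 3 (adjusted p = 0.0547 and 0.0667 in limma). The excess over Sca-1+ luminal libraries was 1.86 (SE 0.71; limma, adjusted p = 0.0922), and 2.62 without Sca-1+ luminal replicate 3 (limma, adjusted p = 0.00381).

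The sum hides a difference between transcripts. The epithelial transcript, 8787 nt long and spanning 34160330 to 34183903, stood at 86.9 and 45.6 FPKM in basal libraries. It was at 3.63, 0 and 1.29 in Sca-1- luminal, 2.91, 5.75 and 5.05 in Sca-1+ luminal, and 0 in both stromal libraries. The 3 long transcripts, 17210 to 24271 nt, summed to 8.79 and 9.96 FPKM in basal, 7.18, 8.45 and 2.12 in Sca-1- luminal, 5.66, 8.31 and 10.2 in Sca-1+ luminal, and 7.08 and 4.79 in stromal libraries. The epithelial transcript thus separated the basal libraries from all others, while the long ones overlapped between basal and Sca-1+ luminal libraries. Of the estimated Dst fragments, the epithelial transcript took 83.5% and 67.3% in basal libraries, 0 to 24.3% in luminal and 0 in stromal ones. The high sum of Sca-1+ luminal replicate 3 came from 1 partial transcript of 1198 nt, at 42.5 FPKM there and listed at 0 in the other 9 libraries. Without short partial forms Dst was 15.2 FPKM in that library, beside 8.57 and 14.1 in the other Sca-1+ libraries. With FPKM multiplied by transcript length, so that short forms weigh less, the basal excess over Sca-1+ luminal libraries was 1.91 (limma, adjusted p = 0.0281).

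**Figure D4:**
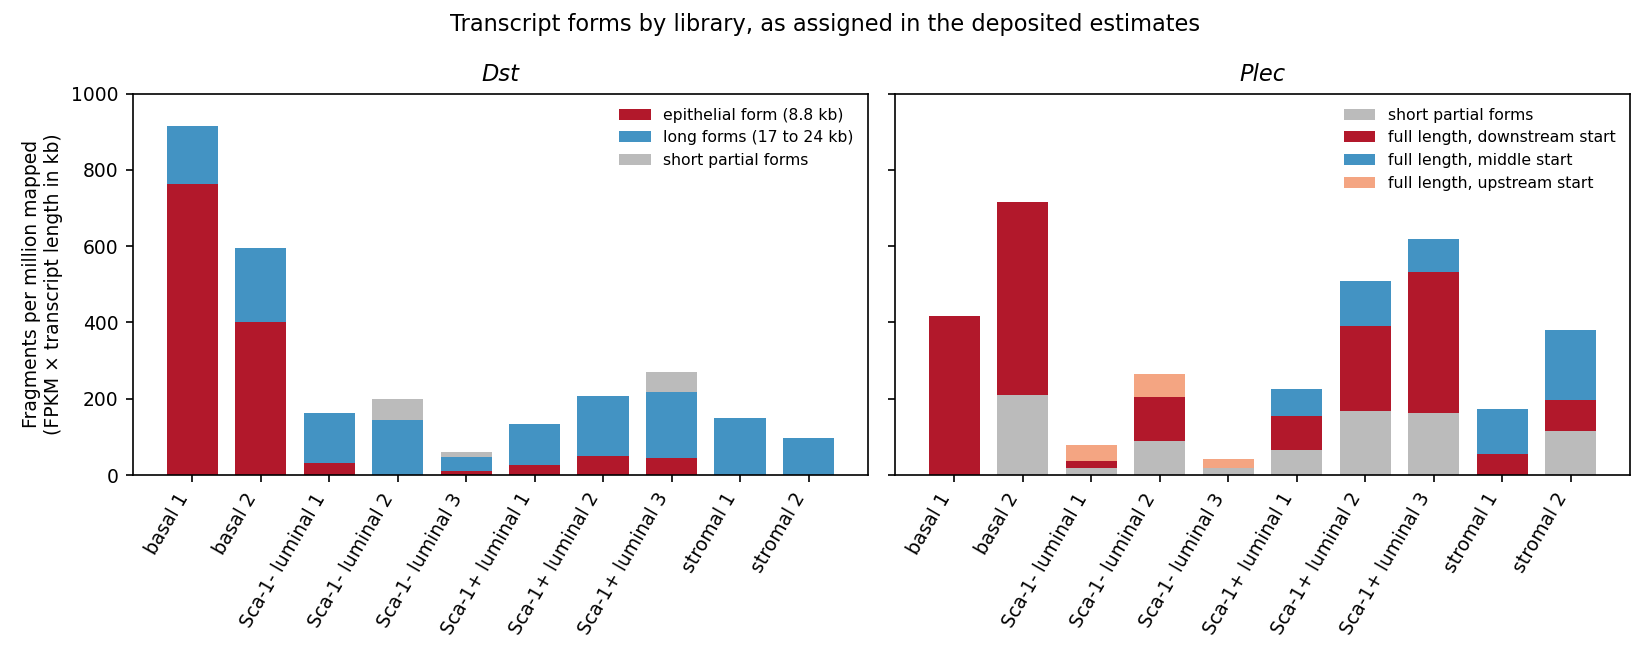
Estimated fragments per M mapped, which is FPKM times transcript length in kb, for the transcript forms of Dst (left) and Plec (right) in each library. The epithelial form makes up most of Dst in the basal libraries (83.5% and 67.3%) and is absent from the stromal bars. The starts to which full-length Plec was assigned differ between groups. These assignments are estimates, and the difference was not tested.

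Windows at a start of long Dst transcripts and at the epithelial start, from RefSeq as above, differ in composition. The first (chr1:34011345-34011644, plus strand) lies nearest to 2 of the 3 long transcripts, those of 17210 and 23252 nt. The other long transcript, of 24271 nt, starts upstream at 33908225 and stood at 0 to 4.02 FPKM over the libraries. The first window is 70.3% G and C, with 31 CpG and 4 GC boxes. The window of the epithelial form (chr1:34160010-34160309, plus strand) is 46.0% G and C, with 6 CpG, and no match to the 4 motifs lies in it. The RefSeq starts lie 230 and 70 bases before the first base of the corresponding transcripts in the deposited tables.
Dst start of long transcripts: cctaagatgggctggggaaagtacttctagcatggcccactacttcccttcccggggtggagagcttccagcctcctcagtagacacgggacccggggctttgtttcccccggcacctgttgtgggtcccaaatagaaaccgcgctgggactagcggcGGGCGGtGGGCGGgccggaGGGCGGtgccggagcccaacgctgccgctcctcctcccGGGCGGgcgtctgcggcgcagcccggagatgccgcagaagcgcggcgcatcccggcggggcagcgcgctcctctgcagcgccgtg
Dst epithelial start: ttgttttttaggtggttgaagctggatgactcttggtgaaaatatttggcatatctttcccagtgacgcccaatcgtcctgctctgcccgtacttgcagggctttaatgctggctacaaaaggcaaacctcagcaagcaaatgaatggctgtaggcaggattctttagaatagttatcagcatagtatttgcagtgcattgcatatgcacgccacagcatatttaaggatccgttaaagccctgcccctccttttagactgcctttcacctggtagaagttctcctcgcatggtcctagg

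Plec (chromosome 15, 76170974 to 76231378, minus strand) encodes plectin, which binds the beta 4 subunit and keratin. Its summed FPKM was 27.9 and 131 in basal, 12.3, 52.7 and 10.5 in Sca-1- luminal, 41.2, 101 and 105 in Sca-1+ luminal, and 11.3 and 71.0 in stromal libraries. All groups overlapped. The basal difference was 1.61 from Sca-1- luminal (SE 0.94; limma, adjusted p = 0.189) and -0.32 from Sca-1+ luminal libraries (SE 0.94; limma, adjusted p = 0.834). A partial transcript of 2155 nt carried 67.0% to 85.9% of that sum in 8 of the 10 libraries, and was listed at 0 in basal replicate 1 and stromal replicate 1. Without partial forms Plec stood at 27.9 and 33.8 FPKM in basal, 4.05, 11.8 and 1.48 in Sca-1- luminal, 10.5, 22.3 and 30.3 in Sca-1+ luminal, and 11.3 and 17.3 in stromal libraries. With FPKM multiplied by transcript length the basal excess over Sca-1- luminal libraries was 2.51 (limma, adjusted p = 0.0193), and that over Sca-1+ luminal libraries was 0.40 (limma, adjusted p = 0.73).

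Plectin has many alternative first exons, and full-length estimates fell on 3 of the annotated starts. The downstream start, at 76195710, had 27.9 and 33.8 FPKM in basal, 1.34, 7.84 and 0 in Sca-1- luminal, 5.96, 14.7 and 24.7 in Sca-1+ luminal, and 3.75 and 5.38 in stromal libraries. The next start, 10.6 kb upstream at 76206321, had values only in Sca-1+ luminal (4.56, 7.60 and 5.59 FPKM) and stromal libraries (7.54 and 11.9 FPKM). The start 33.8 kb upstream, at 76229497, had values only in Sca-1- luminal libraries (2.71, 3.94 and 1.48 FPKM). So every basal full-length value came from the downstream start. Such assignments are estimates among transcripts that share nearly all their sequence, and no test was run on them.

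The 2 luminal groups differed in 4 of the 8 genes. Itgb4, Lamb3 and Lama3 were higher in Sca-1+ luminal libraries, where 21.9% of all genes were called higher. Cd151 was lower, where 13.4% were called lower. The median of the 8 was 1.05 on the log2 scale, against 0.19 for all genes. Itgb4 was higher by 1.99 (SE 0.53; limma, adjusted p = 0.0185), with all 3 Sca-1+ libraries above all 3 Sca-1- ones. It was 1.36 without Sca-1+ luminal replicate 3 (limma, adjusted p = 0.018) and 1.8 without Sca-1- luminal replicate 3, when the call was lost (limma, adjusted p = 0.0669). Lamb3 was higher by 1.25 (SE 0.27; limma, adjusted p = 0.00815), and by 1.18 in Sca-1+ luminal replicate 3 alone (limma, adjusted p = 0.0795). Lama3 was higher by 0.87 (SE 0.26; limma, adjusted p = 0.029), a call lost without any Sca-1- library or without Sca-1+ luminal replicate 2 or 3 (adjusted p from 0.0567 to 0.0741 in limma). With quantile normalization Lama3 was higher by 0.57 (limma, adjusted p = 0.132). Its call was lost in 9 of the 20 alternatives run, those named here included.

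Cd151 was lower in Sca-1+ luminal libraries by 1.24 on the log2 scale (change -1.24, SE 0.28; limma, adjusted p = 0.00992), with no overlap. With replicate 3 alone the change was -1.01 (limma, adjusted p = 0.126). Itga3 had a change of 1.23 that just missed the threshold (SE 0.44; limma, adjusted p = 0.0525) and passed it in some alternatives, such as without Sca-1+ luminal replicate 1 (1.64; limma, adjusted p = 0.0173). Plec (1.93; limma, adjusted p = 0.0981), Dst (0.55; limma, adjusted p = 0.517) and Col17a1 (0.54; limma, adjusted p = 0.456) overlapped between the luminal groups. Without Sca-1+ luminal replicate 3 the count of called genes was 3, and without Sca-1- luminal replicate 3 it was 2. Fibroblast markers moved with this comparison: their sum was 339 to 4881 in Sca-1+ and 75.5 to 134 in Sca-1- luminal libraries. The part of these other markers in the result was not tested.

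Stromal libraries had the lowest mean for 6 of the 8 genes, all but Cd151 and Plec. The same 6 were lower than in basal libraries and none was higher, where 9.11% of all genes were called lower. The median log2 change was -5.47, against 0.02 for all genes. Changes ran from -6.52 for Col17a1 (SE 0.67; limma, adjusted p = 0.00039) and -6.43 for Itga3 (SE 0.53; limma, adjusted p = 0.00016) to -3.43 for Dst (SE 0.78; limma, adjusted p = 0.0121). The Dst call was lost without basal replicate 1 or without either stromal library (adjusted p from 0.0507 to 0.0872 in limma). Against Sca-1- luminal libraries, which share the stromal ones, Itga3 was lower by 2.02 on the log2 scale (change -2.02; limma, adjusted p = 0.00676) and Itgb4 had a change of -1.67 (limma, adjusted p = 0.0371), where 27.4% of all genes were called lower. The Itga3 call was lost in 1 of the 20 alternatives run, that without stromal replicate 1. The Itgb4 call was lost in 9, that one included. Against Sca-1+ luminal libraries 4 of the 8 were lower, where 11.6% were: Itgb4 (-3.67), Itga3 (-3.25), Lama3 (-1.60) and Lamb3 (-1.57), with adjusted p from 0.00286 to 0.0091 in limma. Of these, Itga3 alone remained called without stromal replicate 1. Stromal values of Lama3, Lamb3, Itga3, Itgb4 and Col17a1 were 0 to 1.43% of the basal mean, and Krt5 stood at 0.286% and 1.44% in the same 2 libraries.

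The neighbouring genes of the pathway moved in part with these 8. Of 8 other anchoring genes, 5 were higher and 2 lower in basal than in Sca-1- luminal libraries, where 20.2% and 26% of all genes were. The 5 were Krt5 (5.83) and Krt14 (6.07), the keratins the plakins bind, Col7a1 (1.87), the anchoring fibril collagen, Fermt1 (2.86), an integrin activator, and Itga6 (2.50), whose product set the gate. Exph5 (-1.84) and Klhl24 (-1.49), which encode a vesicle transport protein and an adaptor for keratin turnover, were lower. Of 11 laminin receptors and tetraspanins, 7 were higher and 2 lower. The higher ones were Itga2 (5.26), Sdc1 (4.57), Bcam (3.33), Itgb1 (3.05), Cd9 (2.56), Sdc4 (2.56) and Cd63 (0.93). Of these, Cd9 and Cd63 encode tetraspanins like Cd151. So do the lower ones, Cd82 (-1.71) and Cd81 (-0.93). Their adjusted p in limma were 0.000575 and 0.0174.

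Of 5 other plakins, the periplakin gene Ppl (3.34) and the cytoskeletal linker gene Macf1 (1.27) were higher in basal than in Sca-1- luminal libraries and none was lower, beside 20.2% and 26% of all genes. Of 13 processing and signalling genes, 12 were tested. There Mmp14 (4.59), a protease that cuts laminin-332, the receptor genes Egfr (3.45) and Met (2.36), and Trp63 (3.99), a basal transcription factor, were higher. Adam9 (-0.84) was lower. That made 4 higher and 1 lower of the 12 in the same comparison. Trp63 differed between the basal libraries, at 40.7 and 8.10 FPKM. Between the luminal groups, 8 of the 11 receptors and tetraspanins were higher on the Sca-1+ side and none was lower, where 21.9% and 13.4% of all genes were. Among them Cd9 stood at 762 to 1248 against 181 to 253 FPKM, in the groups between which Cd151 went the other way. The other anchoring genes gave 5 lower and none higher in stromal against basal libraries, where 9.11% of all genes were called lower. Col7a1 was not among those 5, at 7.45 and 11.7 FPKM in stromal and 7.42 and 5.74 in basal libraries.

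Over the 10 libraries the 8 genes fell into 3 patterns by Pearson r of log2(FPKM + 1), given as a description since the libraries share groups. Lama3, Lamb3, Itga3, Itgb4, Col17a1 and Dst correlated with each other at 0.752 to 0.986, the highest value being that of Lama3 with Lamb3. Itgb4 was nearest to Itga3 (0.971) and Col17a1 to Lamb3 (0.972). Plec reached at most 0.587, with Itgb4, and Cd151 at most 0.281, with Col17a1. Among genes at 5 FPKM or more in some library, the nearest to Col17a1 were Car9 (0.992), Cldn1 (0.99) and Krt16 (0.987), and those nearest to Lamb3 were Dusp7 (0.991), Pls3 (0.99) and Reep4 (0.99). Nearest to Lama3 were Plxnb1 (0.991), Rb1 (0.989) and Pkp1 (0.988). Nearest to Itga3 were Cdcp1 (0.995), Irx3 (0.985) and Hyal2 (0.978). For Itgb4 they were Epb41l4a (0.99), Mpzl2 (0.987) and Tinagl1 (0.986), genes that like Itgb4 were high in Sca-1+ luminal replicate 3, at 17.1, 64.1 and 313 FPKM. For Dst they were Tnip3 (0.948), Bicd1 (0.947) and Src (0.945), for Plec Usb1 (0.929), Tpd52l2 (0.915) and Clic1 (0.904). Every r of Dst and Plec rests on sums that include the partial transcripts described above. In Sca-1+ luminal replicate 3 such a transcript made up 73.7% of the summed Dst FPKM. Values of r without partial forms were not computed. Nearest to Cd151 were Rhob (0.972), Nme1 (0.933) and Mrpl17 (0.895). Rhob shared the low Sca-1+ luminal values of Cd151, with 10.2 to 16.4 FPKM there against 34.3 to 47.9 in basal and Sca-1- luminal libraries.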

How the data were processed

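RNA of 10 libraries was analysed. Per the labels' protocols, cDNA was primed with random and poly(dT) primers (NuGEN Ovation) and sequenced on an Illumina HiSeq. Per the submitters' processing notes, bcl2fastq 1.8.3, TopHat and Cufflinks were used on build mm10. For the last 2 a version is not given in the sources used here. The values are FPKM per transcript, estimated by the authors and deposited for each library in 1 tracking table, per the file headers. Strand is not stated, so antisense transcripts cannot be separated.

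Of 63241 transcripts, 54585 (86.3%) were assigned to genes by coordinates of GENCODE M21 and RefSeq (GRCm38.p6). Transcripts under 300 nt were left out, FPKM was summed per gene, and 7 genes with failed estimates were dropped. Depth was read from the steps of low FPKM in isolated transcripts, of which 92.2% to 94.5% lay within 0.1 of a whole fragment number. Values near or below 1 FPKM rest on the fewest fragments.

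Limma 3.58.1 in R 4.3.3 was run on log2(FPKM + 1) with 1 mean per group over all libraries, eBayes with trend and 6 residual degrees of freedom, and was tested on simulated data. Benjamini-Hochberg adjustment was made over 12493 genes per comparison. Alternatives were another pseudocount, 2 filters, 2 scalings, only the 2 groups compared, the most abundant transcript, short transcripts kept, each library left out, and Sca-1+ luminal replicate 3 alone. FPKM multiplied by transcript length was added after seeing the data. The 8 genes and the pathway and marker lists were chosen with earlier results of these data known. Pathway genes were named where called between basal and Sca-1- luminal libraries or where they encode a partner of a member, and nearest genes were the top 3 by r. Replicate numbers follow the order of listing. Figures used Python 3.11.15, pandas 2.3.3 and matplotlib 3.10.9. Some genes of the pathway and marker lists are not reported here.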

Additional observations from a re-analysis of the deposited data

How the results depend on the processing

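For basal against either luminal group and for stromal against basal libraries, the counts of the 8 genes called kept within 1.5 times under all alternatives run. Leaving out 1 library gave 5 to 6 genes for basal against Sca-1- luminal, 4 to 7 for basal against Sca-1+ luminal, 2 to 5 between the luminal groups, 5 to 6 for stromal against basal, 0 to 3 for stromal against Sca-1- luminal and 1 to 5 for stromal against Sca-1+ luminal libraries. Stromal against Sca-1- luminal gave 1 gene with no filter (2 as reported), and stromal against Sca-1+ luminal gave 2 with only those groups fitted (4 as reported). Of the recomputed changes of the 8 genes, 872 kept their direction and their side of the threshold, 55 lost the call, 21 gained one and 12 turned sign, none of them called. With median-of-ratios scaling Cd151 in basal against Sca-1- luminal turned to 0.065 and Plec in basal against Sca-1+ luminal to 0.043, the latter to 0.40 with FPKM multiplied by length. Leaving out 1 library moved Cd151 in basal against Sca-1- luminal from -0.47 to 0.30, Plec in basal against Sca-1+ luminal from -1.42 to 0.77, Plec in stromal against basal from -2.33 to 0.22 and Plec in stromal against Sca-1- luminal from -0.71 to 1.84. Between the luminal groups it moved Col17a1 from -0.045 to 0.99 and Dst from -0.22 to 1.09. Col17a1 there was -0.35 where replicate 3 was the only Sca-1+ library kept. The cause was not tested. Scaling moved the median of all genes: between the luminal groups from 0.19 to -0.07 with quantile normalization, when 40.4% of called genes were higher in place of 62.0%, and for basal against Sca-1+ luminal from -0.29 to 0.08, when 53.3% were higher in place of 22.0%. With median-of-ratios scaling these shares were 46.6% and 47.2%. For stromal against Sca-1+ luminal libraries the share was 13.4% as reported, 37.6% with quantile normalization and 32.7% with median-of-ratios scaling. Over all genes, only the 2 groups fitted gave 1267 calls in place of 2473 for basal against Sca-1+ luminal and 636 in place of 1680 for stromal against Sca-1+ luminal. With Sca-1+ luminal replicate 3 alone the latter gave 3874, and the luminal groups 2072 in place of 4403. The fewest calls with 1 library left out were 3801 in place of 5780 for basal against Sca-1- luminal, 663 for basal against Sca-1+ luminal, 2746 between the luminal groups, 1192 in place of 2825 for stromal against basal and 384 for stromal against Sca-1+ luminal. A group left with 1 library, Sca-1+ luminal included, is taken to vary like the others. No paired analysis was possible because the labels give each library a number of its own, share none between groups and do not say which libraries were prepared together. The low stromal and luminal values rest on fewer fragments than the basal ones. Estimates for Lamb3 were 106 and 151 fragments in stromal against 12434 and 9759 in basal libraries. For Col17a1 in Sca-1- luminal replicate 3 the estimate was 41.5. The part of depth in the spread of these values was not tested.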
